A study of Zea mays with 6 samples.

Results

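The genes described here are the 3 cellulose synthases of secondary cell walls in maize, cesa10, cesa11 and CesA12, and the brittle stalk gene bk2. They were found by name among the synonyms of the genes that the platform annotation gives for the array's probe sets, and each was measured by 1 probe set, so 4 of 17621 probe sets, or 4 of the 1108 genes named, are described (gene identifiers 542685 for cesa10, 542139 for cesa11, 542514 for CesA12 and 778435 for bk2). The tissue was the mesocotyl, the stem segment between seed and coleoptile that lifts a grass shoot to the soil surface. All plants were of the maize inbred line 3681-4 and were harvested 10 days after being sown 20 cm deep and kept in darkness. The control group is labelled only as control, the second group received the gibberellin GA3, and the third received UCZ, which the series describes as blocking gibberellin biosynthesis; the labels used here give no dose, no solvent and no number of plants per array. Each group had 2 arrays, labelled as biological replicates 1 and 2, and the series speaks of independent experiments. Having only 2 arrays per group limits the precision of every value.

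Cellulose is spun at the plasma membrane by complexes built from several different cellulose synthase proteins. Plants use one set of these proteins in the thin primary walls of growing cells and another in the thick secondary walls of xylem and fibres, which are laid down after growth has stopped. The genes cesa10, cesa11 and CesA12 belong to the secondary-wall set, whose 3 kinds of subunit are needed together in Arabidopsis. The gene bk2 encodes a COBRA-like protein, a class of proteins attached to the outer face of the membrane, and stalks of maize bk2 mutants are brittle and poor in secondary-wall cellulose.

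The genes were picked with the UCZ result in view: they were proposed as cellulose genes that were lower in UCZ than in control. Their fall in UCZ is therefore given as a description, without a test, and the comparisons of GA3 share either the control arrays or the UCZ arrays with it. In tissue samples, fewer cells laying down secondary walls and less RNA per such cell cannot be told apart.

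The deposited values are signal intensities scaled by the authors to a common trimmed mean (500.1 to 500.2 on the 6 arrays). The signal at the 3′ end of actin over that at its 5′ end, which rises as RNA degrades, ranged from 2.76 to 3.57 in control, from 3.4 to 4.64 in GA3 and from 3.11 to 4.14 in UCZ. The bacterial poly-A transcripts, which are spiked into the sample ahead of labelling in this array system, had higher signals on the UCZ arrays (mean log2 signal 8.99 and 8.723) than on the control arrays (8.374 and 8.058) or the GA3 arrays (8.352 and 7.823). Scaling to them moves the median change over all probe sets, in log2, to −0.67 for UCZ versus control, to 0.81 for GA3 versus UCZ and to 0.15 for GA3 versus control, so changes below are relative to the deposited scaling. Of the markers of other organs, 11 leaf photosynthesis genes had summed signals of 58470 and 61271 on the control arrays, 44832 and 47118 on the GA3 arrays, and 58787 and 60256 on the UCZ arrays, and 2 of the 11 were called lower in GA3 than in control (0.842% of all probe sets) and 5 lower in GA3 than in UCZ (6.33% of all). The leaf gene me3, a malic enzyme gene chosen after its values were seen, was the 1 member called in UCZ versus control. It was lower (log2 −1.30, limma adjusted p = 0.0011), beside 8.97% of all probe sets called lower. With the replicate number as a block, 2 of the 11 were called lower and 1 higher in UCZ versus control, beside 34.6% of all probe sets called in either direction. The 2 root phosphate transporters summed to 919.1 and 930.9 in control and to between 703.5 and 823 on the other arrays, and 3 kernel zeins to 127.7 to 128.1 in control and 134.9 to 169.9 elsewhere. Only 1 gene of each of these 2 lists was bright enough to be tested, and each sum rests mostly on that gene (mean 894 and 117 in control). No defining markers of the mesocotyl were among the lists, so the tissue label was not checked. The part of cells of other organs in the results below was not tested.

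On the control arrays (replicates 1 and 2) cesa10 had signals of 962.3 and 1000.6, on the GA3 arrays 695 and 809.5, and on the UCZ arrays 367 and 299.6. Both control arrays lay above both GA3 arrays, and these above both UCZ arrays. The signals of cesa11 were 1717.2 and 1852 on the control arrays, 1290.2 and 1562 with GA3, and 724.2 and 651.3 with UCZ, again with no overlap between any 2 groups. The cesa11 probe set carries the suffix that Affymetrix gives to probes shared by more than 1 transcript, so its signal may hold a close relative.

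CesA12 had signals of 1314.6 and 1610.9 on the control arrays, 1153.4 and 964.5 with GA3, and 594.1 and 554.2 with UCZ. It had the widest control replicates of the 4 genes (SD 210, against 7.73 to 95.4), yet its groups were also separate. The signals of bk2 were 748.3 and 737.4 on the control arrays, 496.6 and 585.5 with GA3, and 293.7 and 342.2 with UCZ, with the same order. For all 4 genes, then, control was highest, GA3 intermediate and UCZ lowest, on the arrays of replicate 1 and on those of replicate 2. Control above UCZ follows from the choice of the genes. Over all probe sets kept, 32.7% were lower without overlap in UCZ than in control. The shares were 18.5% for lower in GA3 than in control and 32.3% for higher in GA3 than in UCZ. The share with the full order was not counted.

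**Figure D1:**
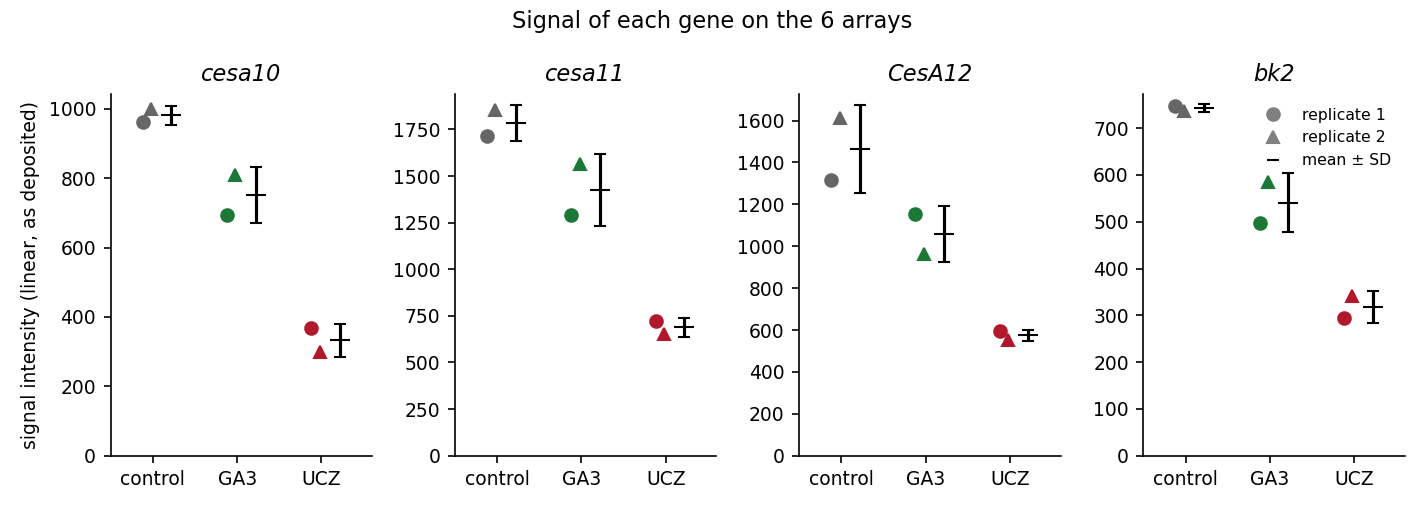
Signal intensity (linear scale, as deposited) of cesa10, cesa11, CesA12 and bk2 on the 6 arrays. Circles are replicate 1, triangles replicate 2, and the bars are the mean ± SD of the 2 arrays of a group; in each panel the control arrays are highest and the UCZ arrays lowest, for cesa10 from 1000.6 down to 299.6.

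In UCZ all 4 genes were lower than in control, each with groups that did not overlap. For comparison, 32.7% of the 10573 probe sets kept were lower without overlap in this comparison, and 8.97% were called lower (limma, adjusted p under 0.05); since the genes were chosen on it, nothing is read from their count. The subunit gene cesa10 had the largest fall of the 4, from 981 ± 27.1 to 333 ± 47.7 (SD, n = 2), a log2 change of −1.52 (SE 0.15) or 2.87-fold. The falls of the other subunits were close to it, −1.36 (SE 0.14) for cesa11, from 1785 ± 95.4 to 688 ± 51.5, and −1.32 (SE 0.15) for CesA12, from 1463 ± 210 to 574 ± 28.2. The COBRA-like gene bk2 fell least, by −1.19 (SE 0.15), from 743 ± 7.73 to 318 ± 34.3. Within replicate 1 the changes were −1.35, −1.23, −1.12 and −1.30 for cesa10, cesa11, CesA12 and bk2, and within replicate 2 they were −1.69, −1.49, −1.51 and −1.07, so that bk2 had the second largest fall in replicate 1 and the smallest in replicate 2. The median over the 4 genes was −1.34, against −0.026 over all probe sets.

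Added GA3 did not raise these genes above control. The genes were chosen on the control arrays too, as lower in UCZ than in control, so the choice favours a fall here. The p-values and intervals below are therefore no independent support for one. All 4 were lower in GA3, by much less than in UCZ, and none passed the test over all probe sets (limma, adjusted p under 0.05; 1.32% of probe sets were called in either direction and 0.842% called lower), although each had an unadjusted p of 0.05 or less, as did 12.1% of all probe sets. The log2 change was −0.38 for cesa10 (95% interval −0.73 to −0.03, adjusted p = 0.37) and −0.33 for cesa11 (−0.65 to 0.00, adjusted p = 0.41). It was −0.46 for CesA12 (−0.82 to −0.10, adjusted p = 0.28) and −0.45 for bk2 (−0.79 to −0.11, adjusted p = 0.26). These intervals are those of single genes and are not adjusted for the number of genes.

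With the replicate number as a block, 2 of the 4 were called lower in GA3 (limma, 5.1% of all probe sets called lower), which the choice of the genes also favours. They were bk2 (adjusted p = 0.038) and CesA12 (adjusted p = 0.046), while cesa10 (adjusted p = 0.10) and cesa11 (adjusted p = 0.12) were not called. In that fit 8.19% of all probe sets were called in either direction. With the block and the poly-A control scaling together none was called, and bk2 had a log2 change of −0.32 (adjusted p = 0.33). The groups did not overlap for any of the 4, as for 18.5% of probe sets that were lower without overlap. Within replicate 1 the changes were −0.46, −0.41, −0.19 and −0.58 for cesa10, cesa11, CesA12 and bk2, and within replicate 2 −0.30, −0.24, −0.73 and −0.32. CesA12 thus moved least of the 4 in replicate 1 and most in replicate 2.

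Against UCZ, the 4 genes were higher in GA3, with no overlap between the groups. This comparison uses the UCZ arrays on which the genes were chosen for being low, so its values are also a description without a test, and nothing is read from their count beside the 7.61% of all probe sets called higher and the 32.3% higher without overlap. The difference was largest for cesa10, 752 ± 81 in GA3 against 333 ± 47.7 in UCZ (log2 1.14, SE 0.15), followed by cesa11 with 1426 ± 192 against 688 ± 51.5 (1.03, SE 0.14). CesA12, with 1059 ± 134 against 574 ± 28.2, was higher by 0.86 (SE 0.15), and bk2, with 541 ± 62.8 against 318 ± 34.3, by 0.74 (SE 0.15). Within replicate 1 the differences were 0.89, 0.82, 0.94 and 0.73 for cesa10, cesa11, CesA12 and bk2, and within replicate 2 they were 1.39, 1.24, 0.78 and 0.75, so that CesA12 had the largest of the 4 in replicate 1 and the second smallest in replicate 2.

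How closely the genes moved together was measured by the root mean square difference between their log2 profiles over the 6 arrays, each profile centred on its own mean. The choice of the genes on the UCZ arrays favours alike profiles, so these values are a description. The closest were cesa10 and cesa11, with a difference of 0.081: of the 10572 other probe sets, cesa10 was the nearest to cesa11, and cesa11 was the second nearest to cesa10. The median probe set lay at 0.66 from cesa10 and at 0.60 from cesa11. CesA12 stood farther off, at 0.20 from cesa10 (rank 49 among the other probe sets) and 0.18 from cesa11 (rank 53). The gene bk2 was nearest to cesa11, at 0.16 (rank 37 from cesa11), and farthest from cesa10, at 0.23 (rank 79 from cesa10, while cesa10 was only rank 219 from bk2).

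The difference between the replicates within a group is a measure that the choice of the genes did not use. In control, replicate 2 exceeded replicate 1 by a log2 difference of 0.06 for cesa10, 0.11 for cesa11 and 0.29 for CesA12, with −0.02 for bk2. In GA3 the differences were 0.22, 0.27, −0.25 and 0.23 in the same order, and in UCZ −0.28, −0.15, −0.10 and 0.21. The genes cesa10 and cesa11 went the same way in each of the 3 groups. CesA12 opposed the other 3 genes in GA3, and bk2 opposed the 3 synthases in UCZ and in control, where its difference was close to 0. With 1 difference per group these are values without a test. The median size of such a difference over all probe sets kept was 0.16 in control and 0.17 in GA3 and in UCZ. The actin ratio also differed between the replicates, being higher in replicate 1 of each group, and its part in these differences was not tested.

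**Figure D2:**
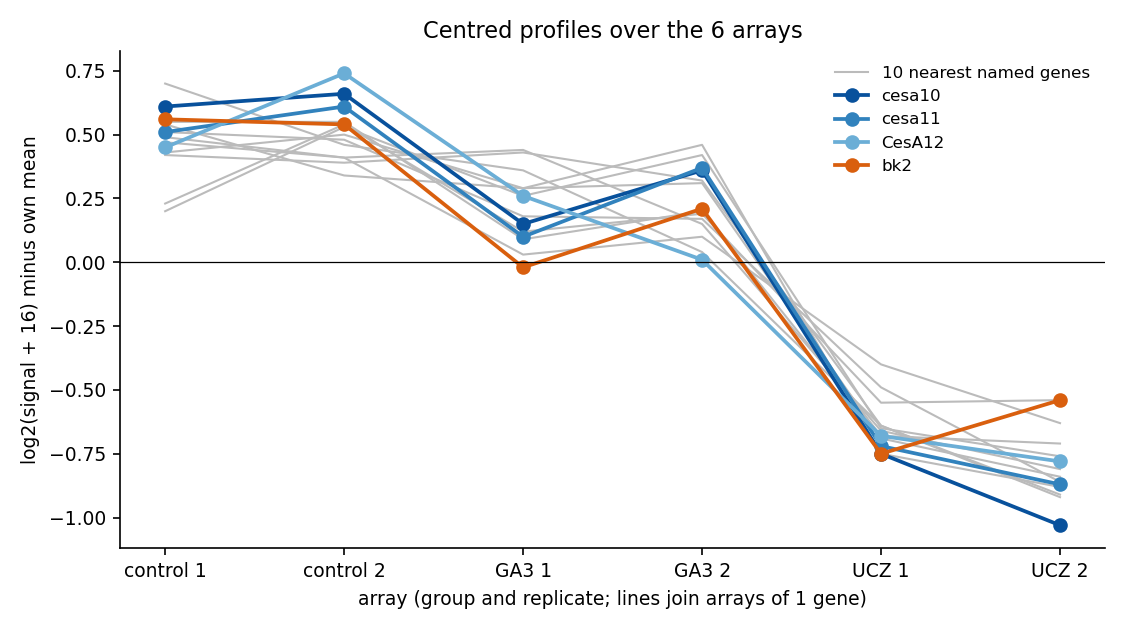
Log2(signal + 16) of each gene minus its own mean, over the 6 arrays (group and replicate). Coloured lines are cesa10, cesa11, CesA12 and bk2, grey lines the 10 named genes with the nearest profiles; cesa10 and cesa11 run together, while CesA12 falls between the GA3 replicates (0.26 to 0.01) where the others rise.

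**Figure D3:**
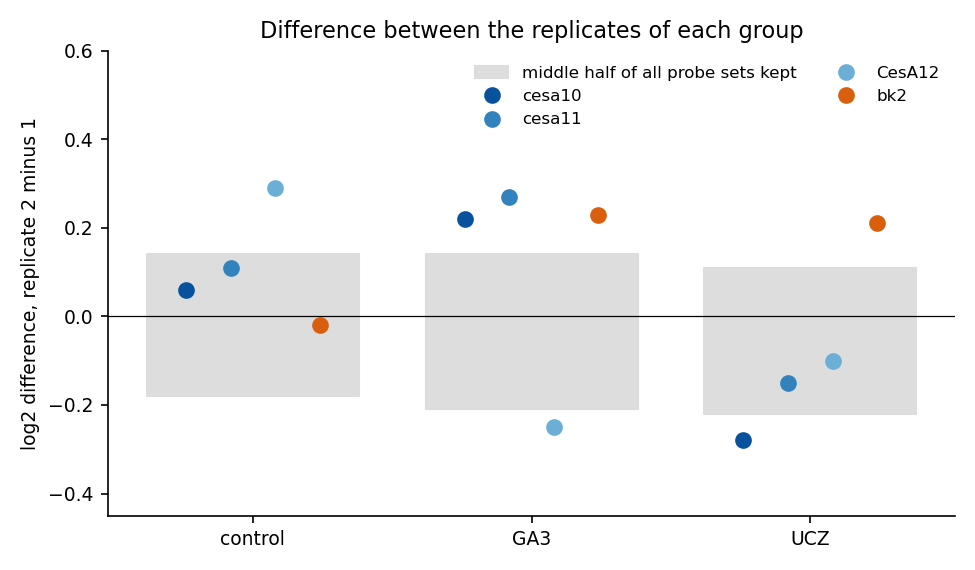
Log2 difference of replicate 2 minus replicate 1 in control, GA3 and UCZ for the 4 genes (points), with the interquartile range over all probe sets kept (grey bars, −0.21 to 0.14 in GA3). The points of cesa10 and cesa11 lie on the same side of 0 in each group, at −0.28 and −0.15 in UCZ. CesA12 lies apart from the others in GA3, at −0.25, and bk2 in UCZ, at 0.21.

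No gene of the 4 has more than 1 probe set, so agreement between probe sets of a gene could be seen only in its relatives. The synthase gene CesA-4 has 2 probe sets, whose centred profiles differed by 0.032, with log2 changes of −0.20 and −0.19 in UCZ versus control. The COBRA-like gene Bk2L3 also has 2, which differed by 0.025, with changes of −0.15 and −0.14. In both cases the probe sets have names with the same stem and may share probes, so this is not agreement between independent measurements.

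The other 9 cellulose synthases on the array, CesA-1 to CesA-9, changed much less. None was called in any of the 3 comparisons (limma, adjusted p under 0.05). Of all probe sets, 15.4% were called in either direction in UCZ versus control, 13.9% in GA3 versus UCZ and only 1.32% in GA3 versus control. In UCZ versus control 3 of the 9 had an unadjusted p under 0.05, as did 31.8% of all probe sets. The same held for 2 in GA3 versus UCZ (29.3% of all) and 2 in GA3 versus control (12.1% of all). With the block, 4 of the 9 were called in UCZ versus control and 2 in GA3 versus UCZ, beside 34.6% and 30.9% of all probe sets. Their log2 changes in UCZ versus control ran from −0.38 to 0.42 with a median of −0.19, and 7 of the 9 lay below 0. Nearest to the 4 genes were CesA-1, which went from 1844 ± 54.8 in control to 1417 ± 83 in UCZ (log2 −0.38, adjusted p = 0.062; 0.012 with the block), and CesA-8, from 913 ± 58.6 to 717 ± 5.68 (−0.34, adjusted p = 0.097; 0.029 with the block). CesA-7 had a change of −0.26 (adjusted p = 0.15; 0.049 with the block). The change of CesA-3, from 462 ± 54.5 to 625 ± 115, went the other way (0.42, adjusted p = 0.16; 0.04 with the block), but turned to −0.23 under poly-A control scaling.

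In GA3 versus control these 9 synthases ran from −0.28 for CesA-7 to 0.28 for CesA-3, with a median of −0.04, against a median of −0.42 for the 4 genes described here. CesA-5 went from 2515 ± 46.9 to 2974 ± 4.43 (log2 0.24, adjusted p = 0.40), CesA-2 had −0.19, CesA-4 −0.20, CesA-6 −0.06, CesA-9 −0.04, CesA-1 0.00 and CesA-8 0.02. In GA3 versus UCZ, CesA-1 and CesA-8 were higher by 0.38 (adjusted p = 0.065; 0.013 with the block) and 0.36 (adjusted p = 0.087; 0.022 with the block), and the other 7 lay between −0.14 and 0.18. Under poly-A control scaling 6 of the 9 were called lower in UCZ than in control and 8 higher in GA3 than in UCZ, beside 40.3% and 62.8% of all probe sets, with medians of −0.83 and 0.77 beside medians of −0.67 and 0.81 over all probe sets.

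A constant shift of all log2 values of an array, as median centring and poly-A control scaling make it, cancels in a difference between genes within that array, while quantile normalization can move it. The mean centred log2 value of the 4 genes minus that of the other 9 synthases was 0.53 and 0.54 on the control arrays, 0.09 and 0.22 on the GA3 arrays, and −0.67 and −0.71 on the UCZ arrays. The 3 groups did not overlap on this difference, which is given without a test because the 4 genes were chosen on part of it. Of the relatives of bk2, Bk2L3 had a mean signal of 3292 ± 69.8 in control, 3128 ± 34.7 in GA3 and 2979 ± 270 in UCZ (log2 −0.15, adjusted p = 0.40 in UCZ versus control), and Bk2L6 had signals between 1.8 and 21 and was not tested.

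**Figure D4:**
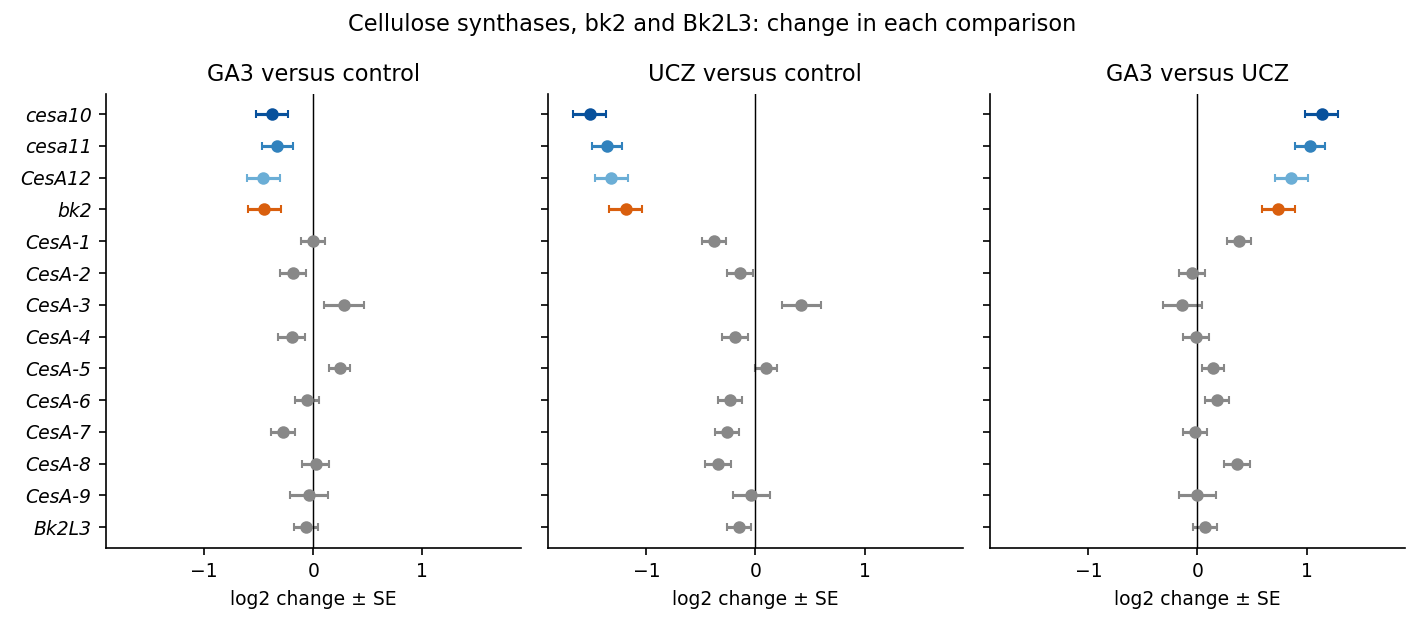
Log2 change ± SE of the 4 genes (coloured), the other 9 cellulose synthases and Bk2L3 (grey) in the 3 comparisons. In UCZ versus control the coloured points lie between −1.52 and −1.19 and the grey ones between −0.38 and 0.42; in GA3 versus control all lie between −0.46 and 0.28.

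Other genes of wall building were followed through fixed lists. The phenylpropanoid genes, which make the lignin of secondary walls, had 2 of 5 members lower in UCZ than in control (8.97% of all probe sets called lower), the cinnamoyl-CoA reductase gene ccr2 (log2 −1.32, adjusted p = 0.015) and 4CL, a coumarate ligase gene (−0.82, adjusted p = 0.012), and 4 of 5 lower with the block (19.1% of all probe sets). Their median was −0.41, with all 5 below 0. In GA3 versus control none of the 5 was called (2 with an unadjusted p under 0.05, against 12.1% of all probe sets; 2 lower with the block, against 5.1%), and their median was −0.38, beside 0.017 over all probe sets. In GA3 versus UCZ none was called either (2 with an unadjusted p under 0.05, against 29.3% of all probe sets; 2 higher with the block, against 17.0%), with a median of 0.05. The regulators myb31 and myb42, known in maize as repressors of lignin genes, had changes of −0.12 and 0.05 in UCZ versus control and 0.01 and −0.02 in GA3 versus control, none called.

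Of the tubulins, the proteins of the microtubules that guide cellulose synthase complexes, 5 of the 11 tested were lower in UCZ than in control (8.97% of all probe sets called lower), with a median of −0.56. In GA3 versus UCZ 6 of 11 were higher (7.61% of all probe sets called higher), led by the beta-tubulin TUB2 (1.19, adjusted p = 0.0031). In GA3 versus control none was called or had an unadjusted p under 0.05, with a median of 0.01 and a range of −0.15 to 0.15. The block gave 7 of the 11 lower in UCZ than in control (19.1% of all probe sets) and 8 higher in GA3 than in UCZ (17.0%). It gave none in GA3 versus control. The sucrose synthases, which can supply the UDP-glucose from which cellulose is made, had no called member of 3 in any comparison (2, 1 and 1 with an unadjusted p under 0.05 in UCZ versus control, GA3 versus control and GA3 versus UCZ, where 31.8%, 12.1% and 29.3% of all probe sets had one). With the block 2 of the 3 were called lower in UCZ than in control (19.1% of all probe sets) and 1 higher in GA3 than in UCZ (17.0%). In UCZ versus control the log2 changes were −0.31 for sh1, −0.24 for sus1 and 0.08 for sus2. Expansins, which loosen primary walls, had 2 of 9 tested members higher in GA3 than in control (0.482% of all probe sets called higher) and a median log2 change of 0.63. In UCZ versus control 3 of the 9 were called lower and 1 higher (15.4% of all probe sets called in either direction), with a median of −0.55. In GA3 versus UCZ 7 of the 9 were called higher (7.61% of all probe sets), with a median of 1.05. The block gave 6 of the 9 expansins higher in GA3 than in control (8.19% of all probe sets called in either direction). It gave all 9 higher in GA3 than in UCZ (17.0% of all probe sets called higher). In UCZ versus control it gave 5 lower and 1 higher (34.6% called in either direction). The wall protein gene HRGP had 0.50 in GA3 versus control (adjusted p = 0.32, or 0.0047 with the block) and was higher in GA3 than in UCZ by 1.16 (adjusted p = 0.0079).

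By the same measure of distance, the named gene nearest to the mean profile of the 4 genes, out of 717 compared, was the kinesin gene KIN6, at 0.06. It was also the nearest of all 10569 other probe sets kept, whose median lay at 0.58. Its signals were 905 and 899.7 on the control arrays, 650.4 and 702.5 with GA3, and 376.5 and 367.6 with UCZ, in the order of the 4 genes, which follows from how it was selected. Next came asn1 (listed as AS), an asparagine synthetase gene, at 0.11, and myo1 (listed as ATPase), a myosin gene by its synonyms, at 0.12. The others of the nearest 10 lay between 0.17 and 0.19: gpc4, a glyceraldehyde phosphate dehydrogenase gene; the beta-tubulin TUBB2, which is the TUB2 above; the aquaporin-like gene NIP2-2; the potassium channel gene K2; gdh1, a glutamate dehydrogenase gene; the sucrose transporter gene sut1; and vpp1 (listed as H+-PPase), a proton pyrophosphatase gene. Counting named and unnamed probe sets, 111 lay nearer than 0.2, and asn1 was the ninth and myo1 the nineteenth nearest. For some of the 10, GA3 lay nearer to control than for the 4 genes, a difference that was not tested: asn1 had 3133.3 and 3293.1 in control and 2853.1 and 2887.7 in GA3, a log2 change of −0.16, and gdh1 had 813.3 and 796.8 against 823.2 and 758.9 (−0.03). The log2 changes of KIN6 were −0.41 for GA3 versus control and 0.83 for GA3 versus UCZ; no test is given, since the nearest genes were selected on these arrays.

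**Figure D5:**
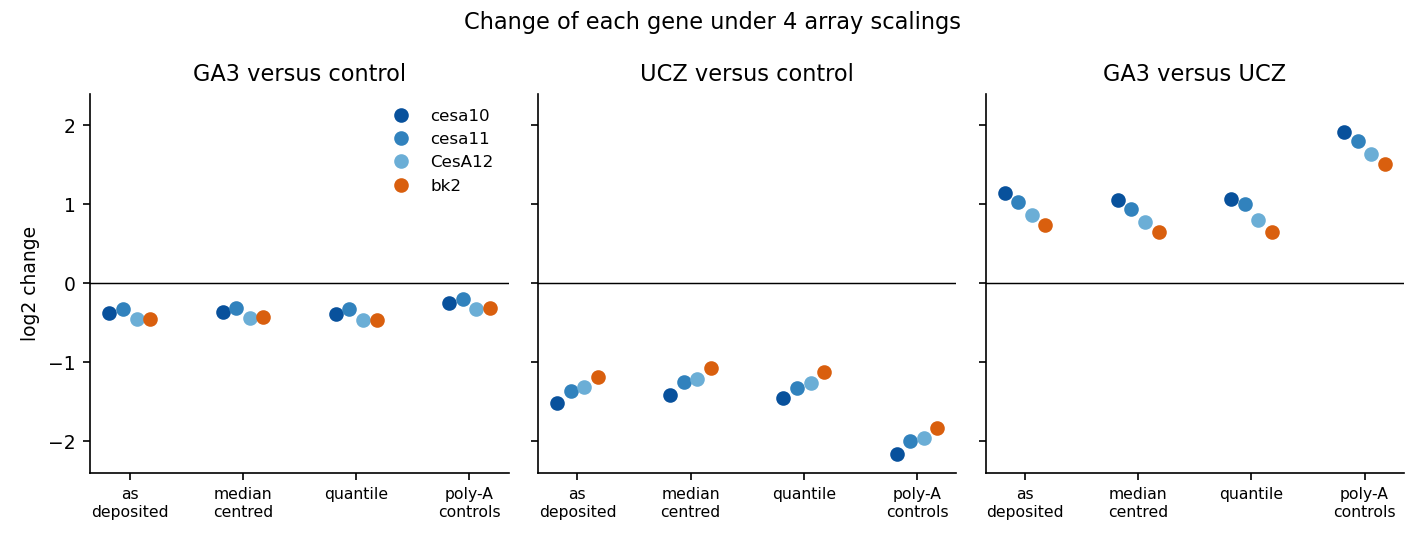
Log2 change of cesa10, cesa11, CesA12 and bk2 in the 3 comparisons, with the arrays as deposited, median centred, quantile normalized or scaled to the poly-A controls. The direction is the same under the 4 scalings; for cesa10 in UCZ versus control the change is −1.52, −1.41, −1.45 and −2.16.

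The direction of each of the 4 genes in each comparison was the same under every scaling. Under poly-A control scaling the falls in UCZ became −2.16, −2.0, −1.96 and −1.83 for cesa10, cesa11, CesA12 and bk2, with the median of all probe sets at −0.67, and the differences between GA3 and UCZ became 1.91, 1.8, 1.63 and 1.51, with the median at 0.81. In GA3 versus control they became −0.25, −0.20, −0.33 and −0.32, with the median at 0.15.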

How the data were processed

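Transcripts of mesocotyls were measured on 6 Affymetrix maize arrays, 2 per group. The authors deposited a linear signal intensity for every probe set, made with GCOS and MAS5, per the submitters' processing notes, which give no settings. The 113 control probe sets were left out. Genes were named by the platform annotation and by synonyms in RefSeq's gene table (Zm-B73-REFERENCE-NAM-5.0), joined on gene identifiers, and no coordinates were taken from it; 1452 probe sets have 1 gene, 1 has several and 16168 have none. Of the 1108 named genes, 1060 matched that table.

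Signals were transformed to log2(signal + 16), on which scale fold changes of dim genes are understated, and a filter retained the brightest 60% by their mean across arrays (10573, lowest mean 6.96), among them all 4 genes. Group means were fitted to all 6 arrays with limma 3.58.1 in R 4.3.3 (variance prior following the mean; 3 residual and 4.52 prior degrees of freedom), two-sided, with Benjamini-Hochberg adjustment over the probe sets kept and a threshold of 0.05. For the 4 genes no p is given in the comparisons that use the UCZ arrays on which they were chosen. The p-values of the 4 genes in GA3 versus control use the control arrays of the same choice, which favours a fall. Each p-value sets a change against the spread between arrays of the same group. In this fit that spread includes any difference between the replicate numbers. The fit without the block was tested on simulated data, in which arrays varied independently and replicate numbers had no effect. That check covers neither a difference between replicate numbers nor the fit with the block. Figures were drawn with matplotlib 3.10.9.

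The replicate numbers were taken to pair the arrays, since the series speaks of independent experiments; deviations from the group means correlated at 0.664, 0.724 and 0.755 between groups. The blocked fit (2 residual, 11.7 prior degrees of freedom) is an alternative. Other alternatives were other scalings (median, quantile, poly-A controls), adding 1 or 64, no filter, the brightest 40%, no trend in the prior, only the 2 groups compared, and leaving out each array.

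The genes and lists were chosen with earlier results of these data known. Named were the 4 genes, the other cellulose synthases, at most 3 genes of each list (those with the smallest p) and the 10 named genes nearest in profile; the COBRA-like, sucrose synthase and MYB genes were named in full after their values were seen. Patterns that caught wrong genes were replaced by explicit lists, and no gene of the lists for cellulose synthase-like and xylan synthesis genes was named on the array. Gene lists were counted on the brightest probe set of each gene.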

Additional observations from a re-analysis of the deposited data

How the results depend on the processing

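The direction of cesa10, cesa11, CesA12 and bk2 was the same in the 3 comparisons under all 17 alternatives. Log2 changes of UCZ versus control ran from −2.16 to −1.38, −2.0 to −1.25, −1.96 to −1.17 and −1.83 to −1.08. Those of GA3 versus UCZ ran from 1.0 to 1.91, 0.89 to 1.8, 0.73 to 1.63 and 0.62 to 1.51 in the same order, given without a test. Among the 11 alternatives that keep all 6 arrays, none of the 4 was called in GA3 versus control except 2 with the replicate block. In the fits without 1 array all 4 stayed lower in GA3 than in control, with log2 changes between −0.6 and −0.19. The choice of the genes favours such a fall. Over all probe sets, poly-A control scaling gave 78 calls in GA3 versus control, 4286 in UCZ versus control and 6657 in GA3 versus UCZ; the replicate block gave 866, 3662 and 3271 in that order, and both together 656, 8549 and 9437, against 140, 1629 and 1474 as fitted. The brightest 40% gave 78 in GA3 versus control. Leaving out 1 array gave 51 to 112, 552 to 1546 and 541 to 1154; each of the 2 arrays of either group compared moved the count by more than 1.5 times. The share of calls that were higher in UCZ versus control was 41.8%, or 60.9% with median centring and 0.56% with poly-A control scaling. In GA3 versus UCZ it was 54.6%, or 40.1% and 99.7%, and in GA3 versus control 36.4%, or 52.6% with poly-A control scaling.

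Directions turned for other cellulose synthases, none of them called as fitted. Under poly-A control scaling, with or without the block, values turned in GA3 versus UCZ for CesA-2 (0.72), CesA-3 (0.63), CesA-4 (0.76), CesA-7 (0.75) and CesA-9 (0.77), in UCZ versus control for CesA-3 (−0.23) and CesA-5 (−0.54), and in GA3 versus control for CesA-6 (0.071) and CesA-9 (0.0853). Quantile normalization turned CesA-1 in GA3 versus control (−0.00125) and, in GA3 versus UCZ, CesA-4 (0.016), CesA-7 (0.0389) and CesA-9 (0.0324), and median centring turned CesA-9 in UCZ versus control (0.0666). Without 1 array, values spanned 0 in GA3 versus control for CesA-1 (−0.0297 to 0.0374), CesA-8 (−0.0397 to 0.0889) and CesA-9 (−0.21 to 0.12), in UCZ versus control for CesA-9 (−0.20 to 0.12), and in GA3 versus UCZ for CesA-2 (−0.15 to 0.0515), CesA-3 (−0.32 to 0.0456), CesA-4 (−0.0895 to 0.0646), CesA-7 (−0.0853 to 0.0379) and CesA-9 (−0.17 to 0.16). The cause was not tested beyond the shift that each scaling makes by construction. A fit that leaves a group with 1 array assumes that it varies like the others. The nearest 10 genes are the same under poly-A control scaling (10 shared) by construction. A constant shift of an array cancels in the distances, so nothing is read from this.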
